A study of Homo sapiens with 15 samples.

Results

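The comparison described here is that of SNU-484 cells exposed to trastuzumab deruxtecan (T-DXd) with SNU-484 cells given vehicle, in 6 of the 15 RNA-seq libraries of the series. SNU-484 is an established human gastric carcinoma line, wild type by its label, which the study used as a model of low HER2 expression. The 3 T-DXd libraries came from cells under the drug at 1 µg/ml over 72 h, and the 3 vehicle libraries from cells kept for the same time in acetate buffer with sorbitol. Libraries were chosen by their labels, which call them biological replicates, and all 18346 genes of the table were considered. The remaining 9 libraries came from NCI-N87, a gastric carcinoma line with high HER2 expression, after T-DXd, trastuzumab or vehicle (3 each). SNU-484 had no trastuzumab arm, so effects of the antibody and of its payload cannot be told apart in this line. The names of the vehicle columns of SNU-484 also carry the letters "iso", and it is open whether the vehicle cells of both lines were handled alike.

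T-DXd is an antibody against HER2 that carries DXd, a poison of topoisomerase I. The payload holds the enzyme on cut DNA, and the trapped complexes collide with replication forks and with transcription. DNA that leaks into the cytosol can be sensed by cGAS and STING, which raise type I interferon, and interferon in turn switches on antiviral effectors and antigen presentation through STAT2, IRF9 and their partners. HER2 itself signals with its partner ERBB3 through RAS and ERK, whose output can be read from immediate-early transcription factors and from feedback inhibitors such as DUSP6 and the Sprouty proteins.

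ERBB2, which encodes HER2, was at 325, 331 and 302 CPM (counts per 1e+06 counts of the scaled library) in the T-DXd libraries, against 291, 294 and 285 CPM in the vehicle libraries. The log2 fold change of 0.14 ± 0.05 (SE) did not pass the test (adjusted p = 0.0932). The epithelial markers of the line were low. KRT8, a simple-epithelium keratin, was at 0.693, 0.477 and 1.05 CPM with T-DXd and 1.40, 1.10 and 0.894 CPM with vehicle, EPCAM was at 2.02, 1.63 and 1.61 CPM with T-DXd and 1.75, 1.99 and 2.39 CPM with vehicle, and CDH1 did not reach the minimum count. In contrast, VIM, the mesenchymal intermediate filament, was at 665, 691 and 749.8 CPM with T-DXd and 745, 741 and 751 CPM with vehicle, and COL3A1, a fibrillar collagen, was at 1571, 1543 and 1344 CPM with T-DXd and 1265, 1173 and 1168 CPM with vehicle. PTPRC, the leukocyte antigen CD45, was at 99.6, 99.0 and 73.6 CPM with T-DXd and 129, 118 and 117 CPM with vehicle. KRT18 and KRT19 were not in the table and are not analysed here.

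Library totals ran from 46666533 counts in T-DXd replicate 3 to 66581448 counts in T-DXd replicate 1, with the vehicle libraries in between. Of 16876 genes that passed the minimum count, 1897 rose with T-DXd and 1629 fell, which is 11.2% and 9.65% of the genes tested, at an adjusted p under 0.05 in edgeR's quasi-likelihood test. With library totals in place of TMM factors the split was 2251 higher and 1252 lower, so that 64.3% of the called genes were higher in place of 53.8%. Changes were small. The absolute log2 fold change had a median of 0.36 among called genes, and 132 of the genes that rose and 61 of those that fell changed by 2-fold or more. In 41.1% of all genes tested the T-DXd and vehicle values did not overlap. The number of calls rested on single libraries. Without T-DXd replicate 2 there were 1026 higher (6.02%) and 810 lower (4.75%) genes. Without vehicle replicates 1, 2 and 3 there were 958, 832 and 937 higher genes (5.61%, 4.89% and 5.51%). The lower genes were then 768, 634 and 729 (4.5%, 3.73% and 4.29%). Without T-DXd replicate 3 the counts were larger, at 2801 higher (16.4%) and 2676 lower (15.7%). Counts of list members with 1 library left out are to be read beside these shares of all genes tested.

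T-DXd replicate 3 stood apart from the other libraries. Its distance to T-DXd replicates 1 and 2 was 32.8 and 29.1 (Euclidean, log2 CPM). T-DXd replicates 1 and 2 were 19.1 apart and vehicle libraries 18.1 to 20.3. Between the groups, T-DXd replicates 1 and 2 lay 32.2 to 33.7 from the vehicle libraries. T-DXd replicate 3 lay 37.8 to 44.99 from the vehicle libraries. The distance between T-DXd replicates 3 and 1 was thus as large as that between T-DXd replicate 1 or 2 and vehicle. Relative to the mean of T-DXd replicates 1 and 2, T-DXd replicate 3 was higher by a median of 0.28 (log2) over genes with transcripts under 1 kb and lower by 0.29 over genes with transcripts above 8 kb. Vehicle replicate 1 differed from the other vehicle libraries in the reverse sense, by medians of -0.11 and 0.12 in these classes. With an offset for transcript length in the fit, 15.6% of all genes rose and 18.5% fell. Of 542 named genes 2 then lost their call and 68 gained one.

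Among 51 antiviral genes induced by interferon, 18 (35.3%) rose with T-DXd, against 11.2% of all genes, and the median log2 fold change of the list was 0.31, against 0.0029 over all genes. No member was called lower by edgeR, where 2 had an unadjusted p under 0.05 in that direction and DESeq2 called 1. Many promoters of these genes carry an interferon-stimulated response element, the site bound by the complex that holds STAT2 and IRF9. Its core, GAAA then any 2 bases then GAAA again, searched on both strands in the window from 250 bases before to 50 after the start site in RefSeq, was found in 29 of the 42 members with a promoter sequence (69.0%) and in 3.65% of 27305 promoters. Among the 17 members with a sequence that rose, 12 held the core, a share near the 69.0% of the whole list. The core thus did not mark out the members that rose. The stretches that hold it upstream of 4 members that rose are given for comparison, on GRCh38.p14 in the direction of the gene, with each core in capitals.
IFI6 (chr1:27672264-27672360, minus strand): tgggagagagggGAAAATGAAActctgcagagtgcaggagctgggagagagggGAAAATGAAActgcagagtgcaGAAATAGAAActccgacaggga
OAS3 (chr12:112938319-112938473, plus strand): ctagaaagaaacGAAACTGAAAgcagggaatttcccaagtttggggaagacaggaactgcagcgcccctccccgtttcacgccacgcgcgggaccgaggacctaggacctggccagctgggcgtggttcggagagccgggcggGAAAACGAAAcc
LGALS3BP (chr17:78979960-78979993, minus strand): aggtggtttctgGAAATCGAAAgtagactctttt
ISG15 (chr1:1013372-1013411, plus strand): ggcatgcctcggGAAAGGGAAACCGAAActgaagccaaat
A match describes the letters only. IFI6 has 3 cores in its stretch, OAS3 has 2, ISG15 has 2 that overlap and LGALS3BP has 1.

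IFI6, a mitochondrial and ER-membrane protein that limits flavivirus replication, was at 50.3, 51.8 and 60.9 CPM in T-DXd cells and 18.7, 17.4 and 18.1 CPM in vehicle cells. The values did not overlap, and the increase was 3.01-fold (log2 1.59 ± 0.08, adjusted p = 3.69e-05). ISG15, the ubiquitin-like modifier, was at 89.3, 95.8 and 121 CPM with T-DXd against 62.3, 64.3 and 65.2 CPM with vehicle, a rise of 0.67 ± 0.10 (log2, adjusted p = 0.00342), with T-DXd replicate 3 the highest. UBE2L6, the conjugating enzyme for ISG15, was at 20.8, 21.6 and 25.7 CPM with T-DXd and 12.2, 12.02 and 13.2 CPM with vehicle, a change of 0.86 ± 0.09 (adjusted p = 0.000763). Both the modifier and its enzyme were thus higher in every T-DXd library than in any vehicle library. OAS3, a synthase of the 2′-5′ oligoadenylates that activate RNase L, was at 17.0, 17.3 and 14.02 CPM with T-DXd and 10.4, 8.99 and 10.1 CPM with vehicle (0.71 ± 0.10, adjusted p = 0.00274). Its relative OAS2 rose by 1.00 and the mitochondrial nucleotide kinase CMPK2 by 1.25 (log2), both from under 1 CPM in every vehicle library. LGALS3BP, a secreted glycoprotein, was at 7.19, 5.91 and 6.56 CPM with T-DXd and 3.71, 3.60 and 3.13 CPM with vehicle (0.91 ± 0.12, adjusted p = 0.00185). Each gene named so far in this group kept its call when any 1 library was left out. Abundant members that did not pass the test were ADAR, at a log2 change of -0.10, and IFITM3, at 0.07. IFIT1 stood at 1.69, 1.81 and 1.63 CPM with T-DXd and 1.39, 1.10 and 1.501 CPM with vehicle, with no overlap but an adjusted p of 0.142. The count of members that rose was 21 without T-DXd replicate 3, where 16.4% of all genes rose. It was 11 without vehicle replicate 2 and also 11 without vehicle replicate 3, where 4.89% and 5.51% of all genes rose. OAS1 and RSAD2, which also belong to this group, were not in the table and are not analysed here.

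**Figure D1:**
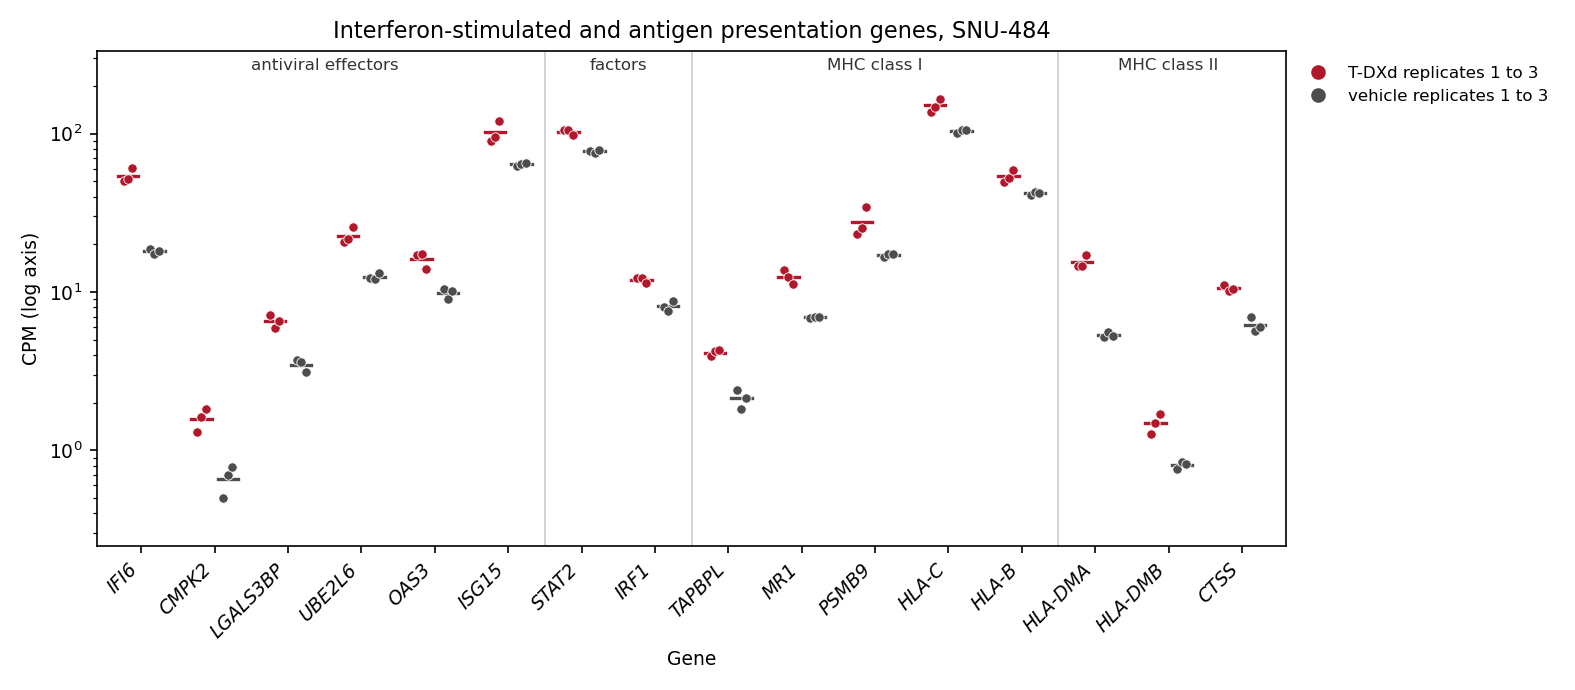
CPM on a log axis for 16 interferon-stimulated and antigen presentation genes in SNU-484, with the T-DXd libraries left of the vehicle libraries for each gene. Points are replicates 1 to 3 from left to right and bars are means. IFI6 shows 50.3 to 60.9 CPM with T-DXd and 17.4 to 18.7 CPM with vehicle, and the groups do not overlap in any gene shown.

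The genes that carry the interferon signal changed in both directions. Of 33 receptors, kinases, STATs and feedback genes tested, 9 (27.3%) rose and 7 (21.2%) fell, against 11.2% and 9.65% of all genes. The median was 0.01. STAT2 was at 105, 106 and 97.4 CPM with T-DXd and 77.3, 75.6 and 79.0 CPM with vehicle (0.41 ± 0.05, adjusted p = 0.00197), and USP18, which removes ISG15 and damps the type I receptor, was at 23.5, 24.97 and 24.3 CPM with T-DXd and 17.3, 17.7 and 18.6 CPM with vehicle (0.44 ± 0.06, adjusted p = 0.00214). IRF1, an interferon-responsive transcription factor, rose by 0.54 ± 0.09 (adjusted p = 0.00418). SOCS2, a feedback inhibitor of growth hormone signalling, was at 29.2, 28.1 and 26.0 CPM with T-DXd and 44.3, 46.6 and 43.6 CPM with vehicle, a fall of 1.61-fold (adjusted p = 0.000378). The 7 lower members became 3 without T-DXd replicate 2, 3 with vehicle replicate 1 left out, 1 without vehicle replicate 2 and 2 when vehicle replicate 3 was dropped.

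Among 19 genes of nucleic acid sensing, 3 (15.8%) rose, against 11.2% of all genes. No member fell by edgeR, with 4 lower at an unadjusted p under 0.05 and 2 lower by DESeq2, and 3 fell without T-DXd replicate 3 and 4 with the length offset. DHX58, which encodes the RNA sensor LGP2, had the largest change, at 1.59, 1.61 and 1.84 CPM with T-DXd and 0.364, 0.431 and 0.287 CPM with vehicle (4.63-fold, adjusted p = 0.000409). DDX58, which encodes RIG-I, was at 16.9, 18.0 and 15.6 CPM with T-DXd and 11.7, 12.6 and 10.97 CPM with vehicle (0.51 ± 0.09, adjusted p = 0.00478). The third was ENPP1, which hydrolyses cGAMP, the messenger made by cGAS, at 6.79, 7.47 and 7.31 CPM with T-DXd and 4.43, 4.77 and 4.47 CPM with vehicle (0.66 ± 0.10, adjusted p = 0.00284). The sensor CGAS itself was at 21.1, 19.1 and 20.1 CPM with T-DXd and 24.4, 23.3 and 21.3 CPM with vehicle (adjusted p = 0.0887), and STING1 at 3.07, 2.82 and 4.46 CPM with T-DXd and 2.69, 2.57 and 3.30 CPM with vehicle (adjusted p = 0.361). Neither passed the test.

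Of 22 MHC class I genes and genes that load them with peptide, 12 (54.5%) rose and 1 fell, and the list had a median of 0.33 on the log2 scale. HLA-C was at 137, 148 and 166 CPM with T-DXd and 101, 106 and 106 CPM with vehicle (0.53 ± 0.07, adjusted p = 0.00226), HLA-B rose by 0.35 ± 0.07 (adjusted p = 0.0102) and HLA-E by 0.36 ± 0.06 (adjusted p = 0.00571). These genes are near-identical in parts, and how reads shared between them were counted is not given in the sources used here. B2M, the light chain of class I, was at 359, 357 and 389 CPM with T-DXd and 286, 312 and 309.5 CPM with vehicle (0.28 ± 0.06, adjusted p = 0.0109, 0.0549 without vehicle replicate 1). The immunoproteasome subunit PSMB9 was at 23.1, 25.3 and 34.3 CPM with T-DXd, highest in replicate 3, and 16.6, 17.3 and 17.3 CPM with vehicle (0.69 ± 0.13, adjusted p = 0.00866). TAPBPL, a peptide editor, was at 3.93, 4.21 and 4.29 CPM with T-DXd and 2.41, 1.82 and 2.16 CPM with vehicle (0.96 ± 0.13, adjusted p = 0.00232), and MR1, which presents microbial vitamin metabolites, at 13.8, 12.5 and 11.2 CPM with T-DXd and 6.88, 6.94 and 6.93 CPM with vehicle (0.85 ± 0.10, adjusted p = 0.000977). The peptide transporter TAP1, which shares a short intergenic promoter with PSMB9, was at 77.9, 82.5 and 81.9 CPM with T-DXd and 74.3, 76.0 and 77.2 CPM with vehicle and did not pass the test (adjusted p = 0.236). NLRC5, the transactivator of class I, was called narrowly (adjusted p = 0.0494) and lost its call without T-DXd replicate 1, T-DXd replicate 2 or any vehicle library, with an adjusted p of 0.149 without vehicle replicate 2. Without vehicle replicate 1 the number of members that rose was 7. The member that fell was not called without T-DXd replicate 2 or any vehicle library, and 2 fell without T-DXd replicate 3.

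In the class II pathway 9 of 13 members (69.2%) rose, with a median of 0.47. Most of them act in the endosome. HLA-DMA, which with HLA-DMB exchanges peptides on class II, was at 14.6, 14.6 and 17.2 CPM with T-DXd and 5.23, 5.55 and 5.24 CPM with vehicle, a 2.89-fold rise (log2 1.53 ± 0.10, adjusted p = 7.75e-05). HLA-DMB was at 1.27, 1.48 and 1.69 CPM with T-DXd and 0.762, 0.845 and 0.814 CPM with vehicle (0.87 ± 0.17, adjusted p = 0.0104). CTSS, the cathepsin that trims the invariant chain, was at 11.1, 10.1 and 10.4 CPM with T-DXd and 6.98, 5.65 and 5.99 CPM with vehicle (0.76 ± 0.10, adjusted p = 0.00214). RFX5, which binds class II promoters, was at 92.3, 93.0 and 87.6 CPM with T-DXd and 66.5, 65.5 and 64.7 CPM with vehicle (0.47 ± 0.05, adjusted p = 0.000818). The invariant chain CD74 stayed near 1 CPM, with 0.811, 0.708 and 1.22 CPM in T-DXd cells and 0.710, 0.813 and 1.15 CPM in vehicle cells (adjusted p = 0.977). The 4 leukocyte markers tested summed to 175 to 197 CPM with T-DXd and 216 to 225 CPM with vehicle, CD4 was under 0.4 CPM in every library, and the part of such transcripts in the class II values was not tested.

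Ligands seen by lymphocytes did not move as a group, with 3 of 15 higher and 3 lower (20% each, against 11.2% and 9.65% of all genes). The higher count was 2 without T-DXd replicate 2 or any vehicle library. The lower count was 2 without any 1 library other than T-DXd replicate 3. BTN3A1, a butyrophilin sensed by gamma delta T cells, was at 22.5, 23.2 and 19.8 CPM with T-DXd and 12.8, 11.4 and 13.4 CPM with vehicle (0.80 ± 0.09, adjusted p = 0.000878). Its relative BTN3A3, which is not in this list, was at 8.05, 7.92 and 6.15 CPM with T-DXd and 3.50, 3.00 and 3.51 CPM with vehicle (1.15 ± 0.13, adjusted p = 0.00114). NT5E, the CD73 ectonucleotidase that makes adenosine, was at 8.67, 8.74 and 8.34 CPM with T-DXd and 5.28, 5.61 and 4.81 CPM with vehicle (0.71 ± 0.10, adjusted p = 0.00202). ICOSLG fell by 1.67-fold (adjusted p = 0.00679) and TNFSF4, the OX40 ligand, by 1.45-fold (adjusted p = 0.000535). CD47 was at 5.23, 4.76 and 4.52 CPM with T-DXd and 4.37, 5.13 and 4.25 CPM with vehicle and did not pass the test. CXCL12 was at 2.65, 2.78 and 3.17 CPM with T-DXd and 1.49, 0.686 and 1.52 CPM with vehicle (1.22 ± 0.26, adjusted p = 0.0134), while CCL5 stayed under 0.5 CPM in every library, at 0.457, 0.181 and 0.364 CPM with T-DXd and 0.0866, 0.0957 and 0.160 CPM with vehicle. Its call (adjusted p = 0.044) was lost without T-DXd replicate 1 or any vehicle library, with an adjusted p of 0.141 without vehicle replicate 2. CD274, CXCL9, CXCL10 and CXCL11 were not in the table and are not analysed here.

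Immediate-early transcription factors are switched on by growth factors through ERK and SRF. Of 24 tested, 8 (33.3%) fell, against 9.65% of all genes, and 1 rose. EGR1 was at 79.0, 72.5 and 73.3 CPM with T-DXd and 252, 250.1 and 240.1 CPM with vehicle, a 3.30-fold decrease (log2 -1.72 ± 0.06, adjusted p = 3.53e-06). EGR3 was at 0.796, 0.840 and 0.536 CPM with T-DXd and 2.01, 2.36 and 2.20 CPM with vehicle (-1.58 ± 0.19, adjusted p = 0.00127), and FOSL1, an AP-1 subunit, at 1.49, 1.22 and 1.42 CPM with T-DXd and 3.90, 3.24 and 3.45 CPM with vehicle (-1.36 ± 0.14, adjusted p = 0.000684). In each of these genes the highest T-DXd library was below the lowest vehicle library. MYC was at 20.6, 21.3 and 20.8 CPM with T-DXd and 31.1, 34.5 and 32.5 CPM with vehicle (-0.65 ± 0.06, adjusted p = 0.00042), FOS at 21.5, 19.8 and 18.8 CPM with T-DXd and 27.99, 28.1 and 29.1 CPM with vehicle (-0.50 ± 0.06, adjusted p = 0.00178), and MAFF and FOSB fell by 1.54-fold and 1.502-fold. JUN did not pass the test, at a log2 change of -0.13. ATF3, a stress-induced member, was the one that rose (0.40 ± 0.12, adjusted p = 0.0397). Its call was lost without T-DXd replicate 2 or any vehicle library, with an adjusted p of 0.133 without T-DXd replicate 2. The count of 8 lower members was 8 or 9 whichever library was left out. Without T-DXd replicate 3, where 16.4% of all genes rose, 4 members rose.

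SRF acts through CArG boxes, and the stretches upstream of EGR1 and of the cytoplasmic actin gene ACTG1 are given here because both genes fell. The box, searched for on both strands in a search added after the values were seen, is in capitals.
EGR1 (chr5:138465362-138465417, plus strand): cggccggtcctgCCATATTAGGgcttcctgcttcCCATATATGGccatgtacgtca
ACTG1 (chr17:81512872-81512905, minus strand): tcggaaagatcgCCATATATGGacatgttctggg
The EGR1 stretch holds 2 boxes and that of ACTG1 holds 1. The same search matched 5 of 22 promoters of the actin, YAP and SRF list (22.7%) and 1.31% of 27305 promoters. In the immediate-early list it matched 2 of 19. Of its 24 members 79.2% had a sequence, against 81.5% in the actin, YAP and SRF list, and the matches in both lists are few. Among members with a sequence that fell, the box was found in 3 of 8 in the actin, YAP and SRF list. It was found in 1 of 5 such members of the immediate-early list.

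Of 28 HER receptors, HER ligands and feedback genes of MAPK signalling, 11 (39.3%) fell and 1 rose, with a median of -0.28. DUSP6, the phosphatase of ERK, was at 466, 470.2 and 466 CPM with T-DXd and 703, 716 and 729 CPM with vehicle (-0.62 ± 0.04, adjusted p = 0.00014). SPRY4, a Sprouty inhibitor of RAS activation, was at 65.5, 69.9 and 64.2 CPM with T-DXd and 116, 114 and 107 CPM with vehicle (-0.75 ± 0.06, adjusted p = 0.0002), and the ETS factor ETV4 at 85.3, 89.0 and 88.7 CPM with T-DXd and 139.7, 137 and 144 CPM with vehicle (-0.68 ± 0.05, adjusted p = 0.000166). All of them were lower in each T-DXd library than in any vehicle library. The ligand EGF was at 2.33, 2.50 and 2.32 CPM with T-DXd and 4.33, 4.24 and 4.92 CPM with vehicle (-0.92 ± 0.12, adjusted p = 0.00158), and NRG1, the ligand of ERBB3 and ERBB4, at 223, 218 and 205 CPM with T-DXd and 270.1, 269 and 268 CPM with vehicle (-0.32 ± 0.05, adjusted p = 0.00397). ERBB3 was at 4.48, 3.92 and 3.94 CPM with T-DXd and 5.60, 4.82 and 5.72 CPM with vehicle (adjusted p = 0.0461), a call lost without T-DXd replicate 2 or any vehicle library, with an adjusted p of 0.151 without vehicle replicate 3. EGFR did not pass the test. The number that fell was 7 without T-DXd replicate 2, 6 without vehicle replicate 1 and 7 without vehicle replicate 2. Without T-DXd replicate 3, where 16.4% of all genes rose, 4 members rose.

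Among targets of YAP and of SRF with the actins, 11 of 27 (40.7%) were lower and 1 higher, with a median of -0.20. ANKRD1, a direct YAP target, was at 48.0, 46.3 and 49.3 CPM with T-DXd and 105, 109 and 96.5 CPM with vehicle (-1.11 ± 0.06, adjusted p = 5.35e-05). CCN2, a secreted YAP target, was at 821, 817 and 879 CPM with T-DXd and 1085, 1135 and 1132 CPM with vehicle (-0.41 ± 0.05, adjusted p = 0.00119), and TAGLN, an actin-binding protein, at 21.5, 23.3 and 30.4 CPM with T-DXd and 42.3, 44.3 and 40.7 CPM with vehicle (-0.76 ± 0.12, adjusted p = 0.00336). The actin genes ACTB and ACTG1 fell by 1.31-fold and 1.29-fold. Without T-DXd replicate 2, or without any 1 of the vehicle replicates, 6 members fell.

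A pair of secreted proteases were among the 15 decreases that stand first by fold change. The collagenase MMP1 was at 1.93, 2.77 and 2.34 CPM with T-DXd and 10.9, 12.5 and 9.39 CPM with vehicle, a 4.67-fold decrease (log2 -2.22 ± 0.16, adjusted p = 0.00014). MMP10, a stromelysin, was at 5.51, 5.65 and 6.09 CPM with T-DXd and 15.001, 17.3 and 17.0 CPM with vehicle (-1.52 ± 0.09, adjusted p = 6.74e-05), and the metalloprotease inhibitor TIMP1 at 1.99, 1.94 and 2.89 CPM with T-DXd and 5.94, 4.83 and 5.30 CPM with vehicle (-1.25 ± 0.17, adjusted p = 0.00221). They belong to the secretory list of senescence, in which 5 of 24 members (20.8%) fell and 6 (25%) rose, against 9.65% and 11.2% of all genes. Among those that rose was IGFBP3, by 0.58 ± 0.11 (adjusted p = 0.00719). The gelatinase MMP2 rose by 0.42 ± 0.12 (adjusted p = 0.0366), a call lost without any 1 library other than T-DXd replicate 3. LMNB1, the lamin lost in senescent cells, was lower (log2 -0.41 ± 0.05, adjusted p = 0.00113).

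**Figure D2:**
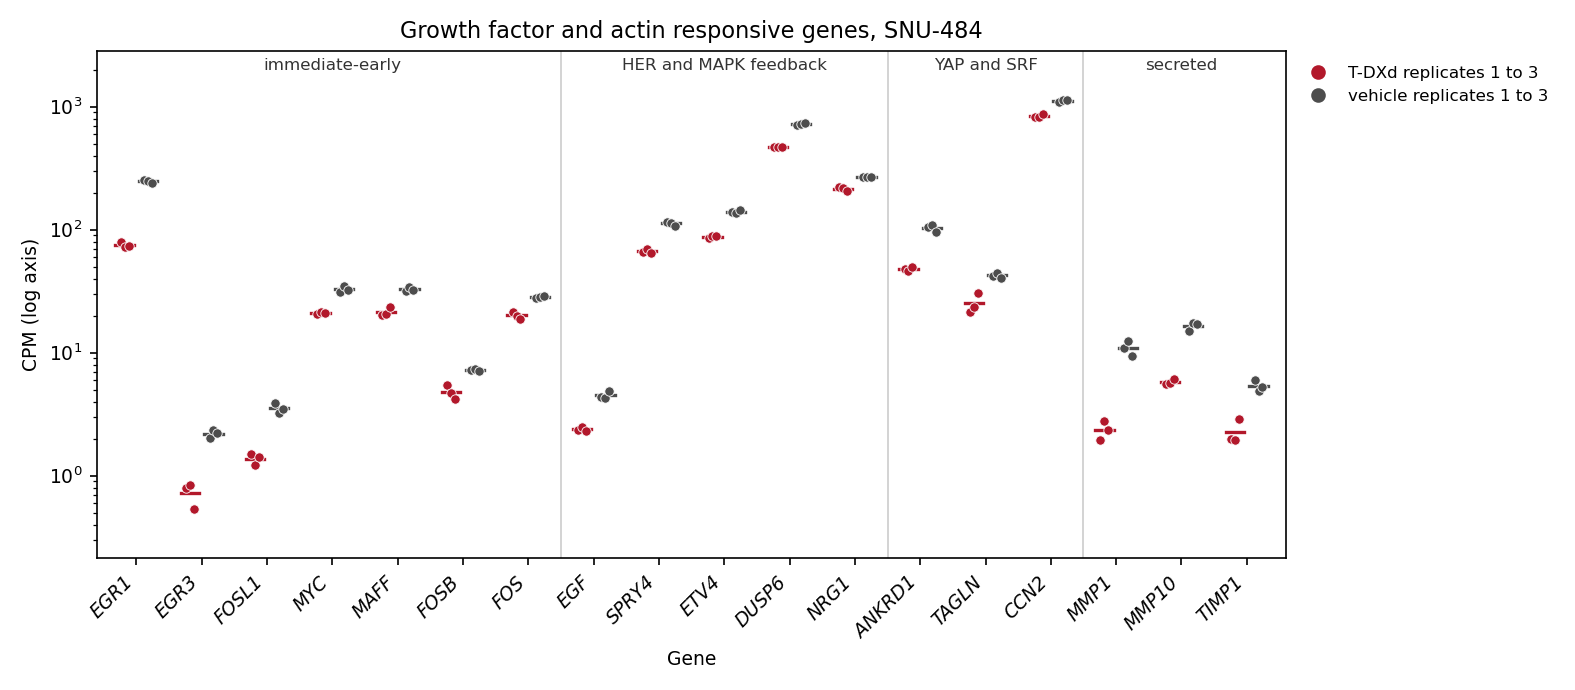
CPM on a log axis for 18 immediate-early, HER and MAPK feedback, YAP and SRF, and secreted genes in SNU-484, with T-DXd libraries left of vehicle libraries. Points are replicates 1 to 3 and bars are means. EGR1 shows 72.5 to 79.0 CPM with T-DXd and 240.1 to 252 CPM with vehicle, and the T-DXd points lie below the vehicle points in every gene shown.

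Of 48 ribosome biogenesis and RNA polymerase I genes tested, 33 (68.8%) fell, at a median of -0.27 (log2). No member rose by edgeR or DESeq2, and 0 had an unadjusted p under 0.05 in that direction. DDX21, a nucleolar helicase, was at 187, 181 and 148 CPM with T-DXd and 276, 253 and 246 CPM with vehicle (-0.59 ± 0.09, adjusted p = 0.00341). WDR43 was at 46.2, 43.1 and 35.01 CPM with T-DXd and 60.2, 62.1 and 62.7 CPM with vehicle (-0.57 ± 0.09, adjusted p = 0.00442), and UTP14A, both of them factors of the small-subunit processome, at 33.9, 31.3 and 31.6 CPM with T-DXd and 44.9, 44.05 and 45.5 CPM with vehicle (-0.47 ± 0.05, adjusted p = 0.00104). Nucleolin, encoded by NCL, was at 583, 567 and 568 CPM with T-DXd and 738, 728 and 709 CPM with vehicle (-0.34 ± 0.04, adjusted p = 0.00187). NPM1, the nucleolar chaperone nucleophosmin, was at 707, 732 and 775 CPM with T-DXd and 986, 1036 and 1007 CPM with vehicle (-0.45 ± 0.05, adjusted p = 0.000968). The count of lower members was 42 without T-DXd replicate 3, where 15.7% of all genes fell. It was 21 without vehicle replicate 1 and 19 without vehicle replicate 2, where 4.5% and 3.73% of all genes fell.

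The ribosomal proteins themselves could not be read apart from T-DXd replicate 3. Of 79 cytosolic ribosomal protein genes, whose transcripts are short, 3 fell with all libraries, 45 without T-DXd replicate 3 and 21 with an offset for transcript length, and the median was -0.01 with all libraries and -0.15 without that replicate. None fell when any other library was left out. Mitochondrial ribosomal proteins followed the same pattern, with 11 of 77 lower (14.3%, against 9.65% of all genes). The count was 42 without T-DXd replicate 3, 32 with the length offset and 2 to 4 without T-DXd replicate 2 or any vehicle library. Among small nucleolar RNA host genes 4 of 28 (14.3%) fell, 12 without T-DXd replicate 3 and 2 without T-DXd replicate 2, vehicle replicate 2 or vehicle replicate 3. SNHG3 was at 38.7, 44.9 and 54.1 CPM with T-DXd and 64.8, 76.9 and 76.3 CPM with vehicle (-0.66 ± 0.12, adjusted p = 0.00651). In this gene T-DXd replicate 3 was the highest of the T-DXd libraries and still below every vehicle library.

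Cholesterol and fatty acid synthesis and uptake genes are driven for the most part by SREBP factors. Of 32 tested, 14 (43.8%) fell and 1 rose, with a median of -0.15, and the lower count was 9 without vehicle replicate 1 or without vehicle replicate 2. STARD4, which carries sterol between membranes, was at 5.16, 5.89 and 5.04 CPM with T-DXd and 11.99, 11.4 and 12.02 CPM with vehicle (-1.14 ± 0.09, adjusted p = 0.000257). SCD, the stearoyl-CoA desaturase, was at 107, 109 and 97.6 CPM with T-DXd and 191, 174 and 170.1 CPM with vehicle (-0.77 ± 0.07, adjusted p = 0.000321). INSIG1 and SQLE fell by 1.29-fold and 1.26-fold. HMGCS1 did not pass the test, at a log2 change of -0.06 (adjusted p = 0.649), and TM7SF2, a sterol reductase, was the one that rose (0.51 ± 0.09, adjusted p = 0.00593).

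Amino acid transporters and stress genes moved unevenly. Of 36 members of the integrated stress and unfolded protein response 10 (27.8%) fell and 5 (13.9%) rose, against 9.65% and 11.2% of all genes. SLC7A5, the leucine transporter, was at 68.5, 71.8 and 71.8 CPM with T-DXd and 118, 119.6 and 117 CPM with vehicle (-0.74 ± 0.05, adjusted p = 0.000103), and SLC7A1, an arginine transporter, at 67.3, 68.2 and 55.8 CPM with T-DXd and 108, 100.2 and 97.5 CPM with vehicle (-0.67 ± 0.08, adjusted p = 0.00142). HSPA5, the ER chaperone BiP, was at 755, 758 and 764 CPM with T-DXd and 937, 933 and 952 CPM with vehicle (-0.31 ± 0.04, adjusted p = 0.00213). DDIT4, an inhibitor of mTORC1, was higher, at 5.70, 6.55 and 6.62 CPM with T-DXd and 3.46, 3.51 and 3.50 CPM with vehicle (0.85 ± 0.10, adjusted p = 0.00143). The lower members numbered 6 without T-DXd replicate 2, vehicle replicate 2 or vehicle replicate 3, and the higher ones 2 or 3 without T-DXd replicate 2 or any vehicle library. Of 30 glycolysis and hypoxia genes 7 (23.3%) rose and 5 (16.7%) fell, against 11.2% and 9.65% of all genes, with a median of 0.04. The higher members numbered 5 without T-DXd replicate 2 or any vehicle library. The lower ones numbered 1 without T-DXd replicate 2, vehicle replicate 2 or vehicle replicate 3. HK2, the inducible hexokinase, had the largest decrease of this list, at 2.46, 2.55 and 2.68 CPM with T-DXd and 4.68, 5.13 and 4.07 CPM with vehicle (-0.85 ± 0.12, adjusted p = 0.00283).

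**Figure D3:**
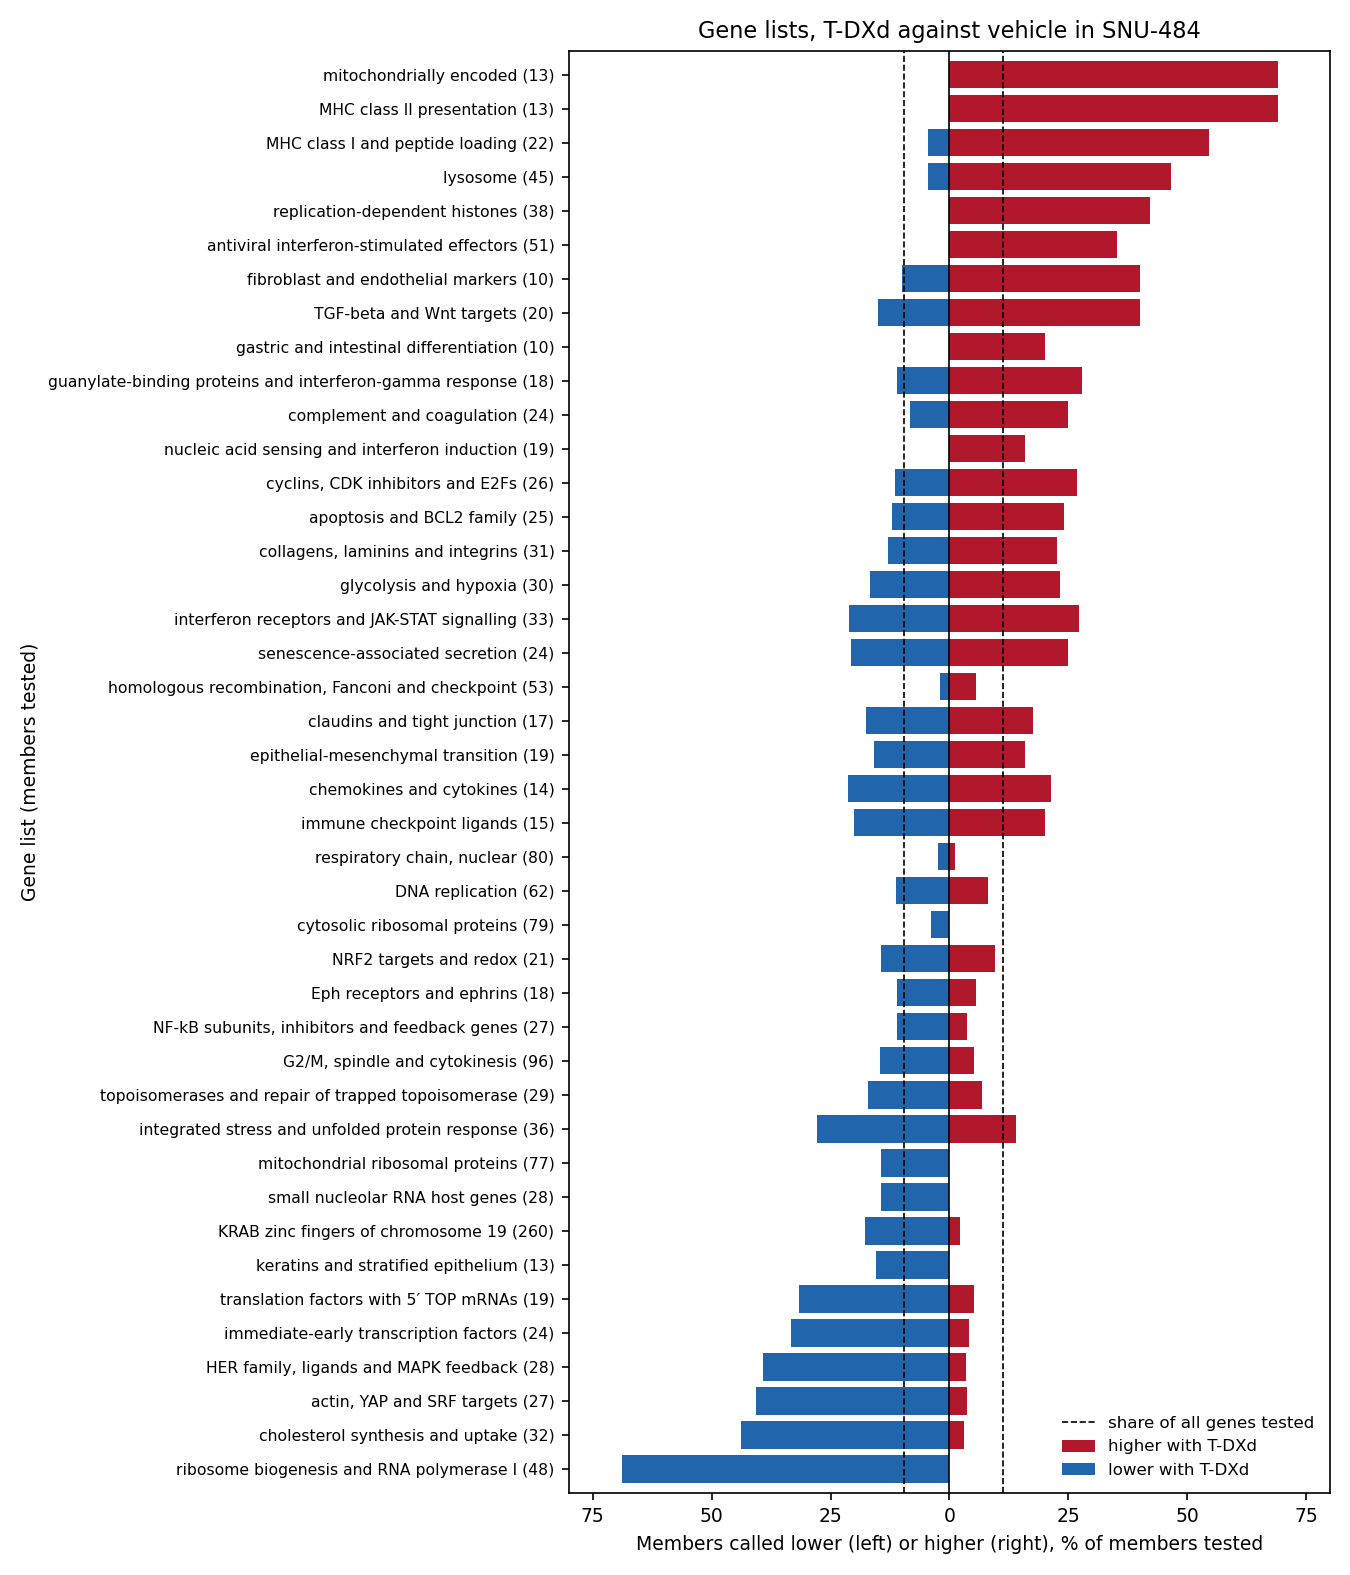
Percent of tested members called lower (bars to the left) and higher (bars to the right) with T-DXd in gene lists with at least 10 members, for SNU-484. Dashed lines are the shares of all genes tested, 9.65% lower and 11.2% higher. Ribosome biogenesis reaches 68.8% lower at the bottom, and MHC class II presentation and mitochondrially encoded genes reach 69.2% higher at the top.

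Among 25 genes of apoptosis and the BCL2 family 6 (24%) rose and 3 (12%) fell, against 11.2% and 9.65% of all genes. The median was 0.08. The higher members numbered 3 without T-DXd replicate 2 or any vehicle library, and the lower ones 1 without T-DXd replicate 2, vehicle replicate 1 or vehicle replicate 2. Of the BH3-only activators of apoptosis, BCL2L11 was at 10.2, 9.89 and 9.61 CPM with T-DXd and 7.05, 7.35 and 6.19 CPM with vehicle (0.53 ± 0.09, adjusted p = 0.00643), and BMF at 11.3, 12.4 and 11.02 CPM with T-DXd and 7.57, 7.42 and 8.56 CPM with vehicle (0.56 ± 0.09, adjusted p = 0.00495).

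The target of the payload, TOP1, was at 176, 173 and 141 CPM with T-DXd and 211, 188 and 188 CPM with vehicle, and its log2 change of -0.26 ± 0.09 did not pass the test (adjusted p = 0.071). The groups did not overlap, and T-DXd replicate 3 was the lowest. TOP1MT, the mitochondrial enzyme, was at 18.9, 21.4 and 20.0 CPM with T-DXd and 26.4, 24.3 and 25.6 CPM with vehicle (-0.34 ± 0.07, adjusted p = 0.0098). Homologous recombination, Fanconi and checkpoint genes had 3 of 53 higher and 1 lower, shares of 5.66% and 1.89% that lie under those of all genes. HUS1, a part of the checkpoint clamp, was at 54.1, 53.3 and 54.8 CPM with T-DXd and 70.9, 75.05 and 72.0 CPM with vehicle (-0.43 ± 0.05, adjusted p = 0.00118). The higher members were 8 without T-DXd replicate 3, where 16.4% of all genes rose, and 1 without vehicle replicate 1 or vehicle replicate 3. The lower ones were 2 without T-DXd replicate 1 and 3 without T-DXd replicate 3, where 15.7% of all genes fell. Of 6 drug efflux pumps tested 1 rose and 1 fell (16.7% each, against 11.2% and 9.65% of all genes). The count that rose stayed at 1 whichever library was left out. ABCC2, the lower one, lost its call without any 1 library other than T-DXd replicate 2. The pumps ABCG2 and ABCC1 did not pass the test, with the first at 0.251, 0.313 and 0.386 CPM with T-DXd and 0.156, 0.303 and 0.144 CPM with vehicle and the second at a log2 change of -0.07.

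Of 96 genes of G2/M, the spindle and cytokinesis, 14 (14.6%) fell, against 9.65% of all genes, and 5 rose, with a median of -0.08. CCNB1, the mitotic cyclin, was at 196, 199 and 204 CPM with T-DXd and 239, 246 and 257 CPM with vehicle (-0.31 ± 0.05, adjusted p = 0.00471), and PLK1 and AURKA, mitotic kinases, fell by 1.23-fold and 1.22-fold. CDK1, the partner of cyclin B, was higher, at 178, 169 and 186 CPM with T-DXd and 138, 144 and 144 CPM with vehicle (0.32 ± 0.06, adjusted p = 0.00553). The lower count was 7 without T-DXd replicate 2, 23 without T-DXd replicate 3, where 15.7% of all genes fell, 38 with the length offset, where 18.5% of all genes fell, and 5, 4 and 5 without vehicle replicates 1, 2 and 3, while 1 or 2 members rose without T-DXd replicate 2 or any vehicle library. MKI67, a proliferation marker with a long transcript, was at 302, 311 and 234 CPM with T-DXd, lowest in replicate 3, and 400.1, 340.1 and 347 CPM with vehicle (adjusted p = 0.0479), a call lost without T-DXd replicate 2 or any vehicle library, with an adjusted p of 0.163 without vehicle replicate 1. In the replication list 7 of 62 (11.3%) fell and 5 (8.06%) rose, shares near the 9.65% and 11.2% of all genes, with 11 and 8 without T-DXd replicate 3, 16 lower with the length offset, and 2 or 3 higher without T-DXd replicate 2 or any vehicle library. MCM6, a subunit of the replicative helicase, fell by 1.30-fold and CDT1, which loads that helicase, rose by 1.28-fold. A pair of regulators of the G1 phase rose. CDKN2C, the p18 inhibitor of CDK4 and CDK6, was at 121, 122 and 140.0 CPM with T-DXd and 80.9, 81.6 and 78.6 CPM with vehicle (0.67 ± 0.07, adjusted p = 0.000588), and CCND1, cyclin D1, at 57.7, 54.9 and 50.7 CPM with T-DXd and 39.7, 36.6 and 37.9 CPM with vehicle (0.52 ± 0.06, adjusted p = 0.00152). In bulk RNA a change in the number of cells in a phase and a change in RNA per cell cannot be told apart.

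Of 38 replication-dependent histone genes 16 (42.1%) rose, with a median of 0.42. No member fell by edgeR or DESeq2, with 0 at an unadjusted p under 0.05 in that direction. H2AC8 was at 13.9, 14.4 and 18.9 CPM with T-DXd and 6.60, 5.74 and 6.35 CPM with vehicle, a 2.52-fold rise (log2 1.33 ± 0.13, adjusted p = 0.000523). H2AC18 and H2AC19, near-identical neighbours between which reads can be split, were at 8.12, 8.99 and 12.5 and 8.56, 9.53 and 13.2 CPM with T-DXd, highest in replicate 3, and 5.30, 5.45 and 5.60 and 5.65, 5.84 and 5.97 CPM with vehicle. The libraries were made with selection for poly(A), and most replication-dependent histone mRNAs end in a stem-loop without a poly(A) tail, so only the share of transcripts that were captured was measured. The count was 10 without vehicle replicate 1 or vehicle replicate 3, and 16 without T-DXd replicate 3, at a median of 0.41.

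Of 45 lysosomal genes 21 (46.7%) rose and 2 fell, with a median of 0.22. CTSK, a cathepsin that degrades collagen, was at 33.7, 32.6 and 33.6 CPM with T-DXd and 18.8, 21.5 and 18.8 CPM with vehicle (0.76 ± 0.07, adjusted p = 0.000389), and CTSF, another cathepsin, at 26.3, 28.4 and 29.4 CPM with T-DXd and 15.7, 19.9 and 17.4 CPM with vehicle (0.66 ± 0.09, adjusted p = 0.00228). LGMN, an asparaginyl protease of the lysosome, was at 214, 216 and 216 CPM with T-DXd and 149.8, 153 and 153 CPM with vehicle (0.50 ± 0.05, adjusted p = 0.000418), and GAA, the acid glucosidase, at 54.9, 56.9 and 56.6 CPM with T-DXd and 38.0, 38.6 and 37.5 CPM with vehicle (0.56 ± 0.05, adjusted p = 0.000373). The membrane protein LAMP1 and the regulator TFEB did not pass the test, at log2 changes of 0.02 and -0.14. The count that rose was 16 to 25 whichever library was left out, and the 2 lower members were 5 without T-DXd replicate 3, 1 without vehicle replicate 1 and 0 without T-DXd replicate 2, vehicle replicate 2 or vehicle replicate 3.

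Transcripts encoded by mitochondrial DNA made up a larger part of the T-DXd libraries, with a sum of 75258 to 90134 CPM for the 13 genes tested, against 64705 to 69143 CPM with vehicle. Of these genes 9 (69.2%) rose, with a median of 0.29. COX1, a subunit of cytochrome c oxidase, was at 14741, 15208 and 16792 CPM with T-DXd and 11353, 11455 and 11983 CPM with vehicle (0.43 ± 0.05, adjusted p = 0.00142), and CYTB, of complex III, at 5024, 5211 and 6147 CPM with T-DXd and 3904, 3920.0 and 4051 CPM with vehicle (0.46 ± 0.07, adjusted p = 0.00362). T-DXd replicate 3 was the highest in both. The count was 5 without T-DXd replicate 2, 5 without vehicle replicate 1 and 4 without vehicle replicate 2, and the median was 0.20 without T-DXd replicate 3. Of 80 nuclear genes of the respiratory chain 1 (1.25%) rose and 2 (2.5%) fell, against 11.2% and 9.65% of all genes. Without T-DXd replicate 1, where 10.3% of all genes rose, 8 were higher. Without T-DXd replicate 3, where 16.4% of all genes rose and 15.7% fell, 6 were higher and 15 lower. With the length offset 12 were higher and 11 lower, against 15.6% and 18.5% of all genes. The joint fit of both lines had 12 higher and DESeq2 had 6, against 16.3% and 11.6% of all genes.

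Zinc finger genes of chromosome 19, most of which encode KRAB repressors of transposable elements, showed a pattern by position. Of the 260 tested, 46 (17.7%) fell and 6 rose, while of the 260 on other chromosomes 23 (8.85%) fell and 18 rose. Lower members were most frequent in 2 stretches, chosen after the values were seen, so that no test is given. In the short-arm cluster, from 19 to 25 Mb on GRCh38, 14 of 38 fell and the median was -0.33. In the long-arm cluster, from 36 to 38.5 Mb, 16 of 29 fell and the median was -0.32. Over the other 193 zinc finger genes of the chromosome 16 fell and the median was -0.02. Without T-DXd replicate 3, which was low in long transcripts, the medians were -0.20 in the short-arm cluster and -0.27 in the long-arm cluster. Genes of other classes in the same stretches had 6 of 41 lower at a median of 0.07 on the short arm and 8 of 35 lower at a median of -0.07 on the long arm. The count over the chromosome was 25, 25 and 28 lower without vehicle replicates 1, 2 and 3, and 13 higher without T-DXd replicate 3 against 1 or 2 without T-DXd replicate 2 or any vehicle library.

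Individual members differed widely. ZNF208, in the short-arm cluster, had the largest increase of all genes with an average of at least 2 log2 CPM, at 8.77, 9.43 and 5.81 CPM with T-DXd and 0.485, 0.367 and 0.575 CPM with vehicle, a 16.8-fold rise (log2 4.07 ± 0.24, adjusted p = 6.24e-05). Its lowest T-DXd library, replicate 3, was still far above its highest vehicle library. ZNF699 was at 34.2, 32.0 and 26.2 CPM with T-DXd and 77.4, 70.2 and 65.3 CPM with vehicle (-1.20 ± 0.10, adjusted p = 0.000308), and ZNF582 at 2.05, 2.11 and 1.52 CPM with T-DXd and 4.64, 4.67 and 4.65 CPM with vehicle (-1.29 ± 0.14, adjusted p = 0.000822). ZNF283 was at 13.5, 13.2 and 10.4 CPM with T-DXd and 27.7, 26.8 and 24.9 CPM with vehicle (-1.09 ± 0.10, adjusted p = 0.000409). These 3 lie outside both clusters. Zinc finger genes of this chromosome resemble each other in sequence, and reads could be split among copies.

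**Figure D4:**
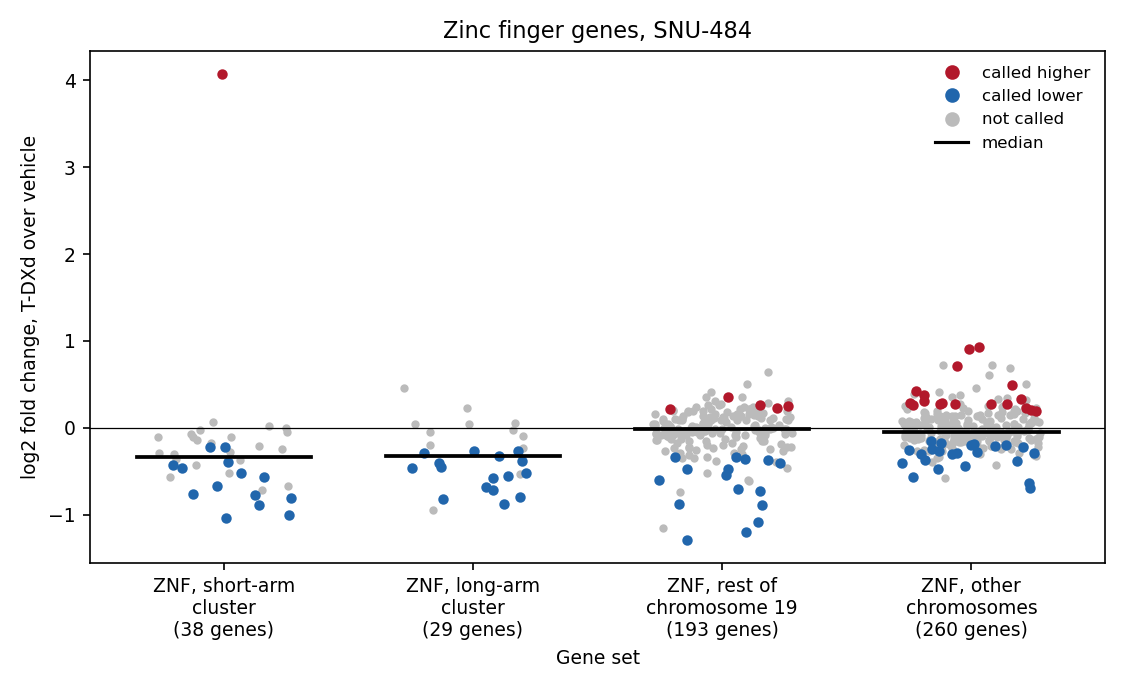
Log2 fold change of T-DXd over vehicle in SNU-484 for zinc finger (ZNF) genes of the short-arm and long-arm clusters of chromosome 19, the rest of that chromosome and other chromosomes. Each point is a gene, coloured where called, and bars are medians, at -0.33, -0.32, -0.02 and -0.05 from left to right. ZNF208 stands alone at 4.07.

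Beyond the lists, the 15 largest increases and 15 largest decreases among well expressed genes were examined. Their T-DXd and vehicle values did not overlap, as the choice required. After ZNF208, IFI6 and HLA-DMA came H2AC8 and NOG, the secreted antagonist of BMP ligands, at 7.74, 8.99 and 8.06 CPM with T-DXd and 2.98, 3.44 and 3.53 CPM with vehicle (1.32 ± 0.11, adjusted p = 0.000321). ST6GALNAC2, a sialyltransferase of mucin-type glycans, was at 18.1, 18.1 and 19.3 CPM with T-DXd and 7.33, 7.51 and 7.63 CPM with vehicle (1.30 ± 0.07, adjusted p = 5.26e-05). GPER1, a membrane oestrogen receptor, was at 8.11, 9.15 and 8.40 CPM with T-DXd and 3.33, 3.80 and 3.43 CPM with vehicle (1.28 ± 0.10, adjusted p = 0.000242), and LDHD, the D-lactate dehydrogenase, at 17.8, 16.6 and 18.9 CPM with T-DXd and 8.73, 8.31 and 8.84 CPM with vehicle (1.04 ± 0.08, adjusted p = 0.000176). These genes rose by 2-fold or more in a line where few genes did. BTN3A3, FAXDC2, TMEM86A, PCSK1N, NPTX2, MEGF6 and MANSC1 completed the 15, between 1.06 and 1.28 on the log2 scale.

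The decreases were led by MMP1. TGM2, the tissue transglutaminase, was at 8.90, 9.98 and 10.2 CPM with T-DXd and 35.2, 34.8 and 31.6 CPM with vehicle, a 3.50-fold fall (log2 -1.81 ± 0.08, adjusted p = 1.33e-05). RGS4, a brake on G-protein signalling and the most abundant of these genes, was at 195, 191 and 178 CPM with T-DXd and 437, 433 and 434 CPM with vehicle (-1.21 ± 0.05, adjusted p = 1.35e-05). UPP1, the uridine phosphorylase, was at 108, 116 and 139.6 CPM with T-DXd and 247, 281 and 266 CPM with vehicle (-1.12 ± 0.10, adjusted p = 0.000301). They fell in each T-DXd library, although replicate 3 was the highest of the T-DXd values of UPP1 and the lowest of those of RGS4. The long noncoding RNA LNCAROD was at 27.6, 29.6 and 27.8 CPM with T-DXd and 72.1, 70.5 and 69.9 CPM with vehicle (-1.32 ± 0.05, adjusted p = 1.16e-05). NES, the neural intermediate filament nestin, was at 6.26, 7.00 and 5.57 CPM with T-DXd and 15.001, 14.1 and 13.2 CPM with vehicle (-1.16 ± 0.10, adjusted p = 0.000389). MAMDC2, SCEL, FILIP1L and PADI2, an enzyme that citrullinates proteins, completed the decreases beside EGR1, MMP10, ZNF699, STARD4 and ANKRD1, and fell by 2.50-fold, 2.40-fold, 2.32-fold and 2.18-fold. Every gene of the 15 increases and 15 decreases kept its call when any 1 library was left out.

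Targets of TGF-beta, BMP and Wnt signalling had 8 of 20 (40.0%) higher and 3 lower. The BMP-responsive genes ID1 and SMAD6 were among those that rose. ID1, an inhibitor of differentiation factors, was at 101, 103 and 129.5 CPM with T-DXd and 70.7, 75.5 and 70.4 CPM with vehicle (0.62 ± 0.09, adjusted p = 0.00344), and SMAD6, the inhibitory SMAD, at 17.2, 15.9 and 14.1 CPM with T-DXd and 8.97, 8.32 and 8.97 CPM with vehicle (0.85 ± 0.09, adjusted p = 0.000831). AXIN2, a feedback target of Wnt, was lower, at 33.7, 35.7 and 30.9 CPM with T-DXd and 47.9, 44.2 and 44.2 CPM with vehicle (-0.44 ± 0.07, adjusted p = 0.00356). The higher members were 5 without T-DXd replicate 2 and 4 without vehicle replicate 1 or vehicle replicate 3, and the lower ones 1 without T-DXd replicate 2, vehicle replicate 1 or vehicle replicate 3. MUC1, a membrane mucin, was at 10.4, 10.7 and 12.7 CPM with T-DXd and 5.63, 6.59 and 7.22 CPM with vehicle (0.80 ± 0.12, adjusted p = 0.00336), whereas SOX2, a gastric and stem-cell factor, did not pass the test at 502, 490.5 and 495 CPM with T-DXd and 511, 501 and 479 CPM with vehicle (adjusted p = 0.97). Of 10 fibroblast and endothelial markers 4 (40%) rose and 1 (10%) fell, against 11.2% and 9.65% of all genes. The sum of the 10 was 1759 to 1954 CPM with T-DXd and 1505 to 1594 CPM with vehicle. DCN and LUM, matrix proteoglycans, rose by 1.55-fold and 1.27-fold, and the fibrillar collagen gene COL1A1 fell by 1.39-fold.

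The response was then set against that of NCI-N87, by an interaction term over the 12 T-DXd and vehicle libraries of both lines. The effect of T-DXd differed between the lines in 6161 of 14785 genes tested, more positive in SNU-484 in 2860 (19.3%) and more negative in 3301 (22.3%). TGM2 was lower with T-DXd in SNU-484, at -1.81 ± 0.07 (log2, SE), and higher in NCI-N87, at 1.47 ± 0.07, a difference of -3.28 ± 0.10 (adjusted p = 2.12e-10). NES had a difference of -3.17 ± 0.13, with -1.16 in SNU-484 and 2.01 in NCI-N87 (adjusted p = 2.66e-09), and FOSL1 one of -2.28 ± 0.12, with -1.36 in SNU-484 and 0.92 in NCI-N87 (adjusted p = 2.21e-08). The ligand EGF went down in SNU-484 and up in NCI-N87, at -0.91 and 1.38, and so did the YAP target ANKRD1, at -1.11 and 0.70. Metallothioneins, which bind zinc and copper, differed in the reverse sense. MT1X was at 0.56 in SNU-484, where it did not pass the test (adjusted p = 0.0579 in the joint fit), and at -2.22 in NCI-N87, a difference of 2.78 ± 0.26 (adjusted p = 3.77e-06).

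**Figure D5:**
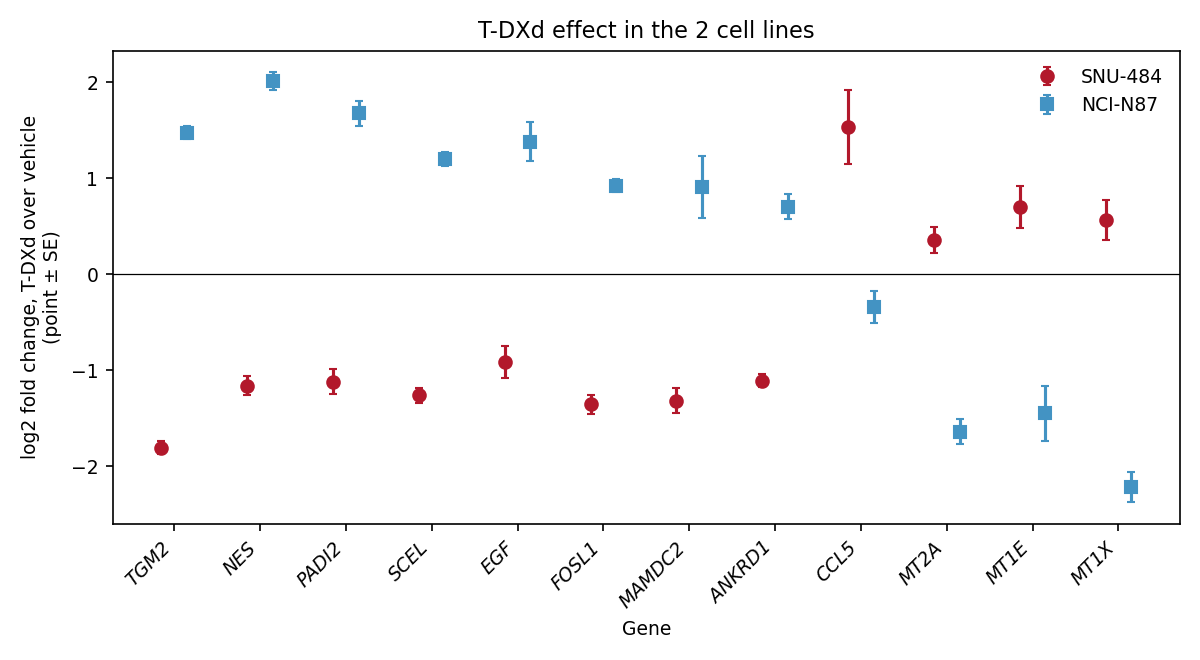
Log2 fold change of T-DXd over vehicle (point, with SE as bar) in SNU-484 (circles) and NCI-N87 (squares) for the 12 named genes with the largest difference between lines, ordered by that difference. TGM2 lies at -1.81 in SNU-484 and 1.47 in NCI-N87, and in 9 of the 12 the lines were called in opposite directions in the joint fit. MT1E is 1 of the 9, with an adjusted p of 0.0267 for SNU-484 there and 0.0571 in the fit of SNU-484 alone.

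The change was also read against the genomic span of each gene. The median log2 fold change was 0.03 over 4954 genes under 10 kb, 0.02 over 4431 genes of 10 to 30 kb, -0.02 over 4734 genes of 30 to 100 kb, -0.02 over 2193 genes of 100 to 300 kb and -0.03 over 536 genes above 300 kb. These medians lay within the spread between T-DXd libraries, whose SD was 0.09 in the shortest class and 0.13 in the longest. Without T-DXd replicate 3 the medians of both classes had the other sign, at -0.02 for the shortest and 0.03 for the longest. Over well expressed genes, at an average log2 CPM from 2 upwards, they were 0.03 for the shortest and -0.08 for the longest.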

How the data were processed

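RNA from SNU-484 cells was sequenced from poly(A)-selected, stranded libraries. The submitters' processing notes name Trimmomatic 0.38, HISAT2 2.1.0, StringTie 2.1.3b, DESeq2 and GRCh38, and the annotation release is not given in the sources used here. The deposited table gives read counts per gene, not normalized, which were used for all tests. It also gives TPM values that the authors computed per sample, which entered no test. The table has 24 per-sample columns, of which 12 were not used, and its columns of the authors' own comparison (fold change, base mean, standard error, statistic and p-values) were not used either.

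Genes were kept by edgeR 4.0.16 (filterByExpr, minimum count 10, minimum total 15, R 4.3.3), scaled by TMM factors and tested with the quasi-likelihood F-test of T-DXd against vehicle, with Benjamini-Hochberg adjustment over all genes tested and a threshold of 0.05. CPM values use the scaled library sizes, and the SE of a log2 fold change was derived from the F statistic. The scripts were tested on simulated data. P-values measure the spread between cultures of 1 line. The difference between lines was an interaction term in a joint fit of 12 libraries. Alternatives were other scalings, filters, robust weights, a replicate block, DESeq2 1.42.0, each library left out and, added after the data were seen, an offset for transcript length from GENCODE. Promoter sequences came from RefSeq on GRCh38.p14 and covered 12350 of the 16876 genes tested. Members and lists were chosen with earlier results of these data known. The text names key members of the lists, well expressed genes that stand first by fold change among calls without overlap between groups (15 in each direction, average log2 CPM at least 2), and per list no more than 6 called members, taken by size of change, and 3 that were not called, taken by CPM. Some genes and lists are not reported here.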

Additional observations from a re-analysis of the deposited data

Results flagged for a closer look

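The effect of T-DXd differed between SNU-484 and NCI-N87 in 6161 genes by the interaction term in edgeR, and the 12 named genes with the largest difference are given here as SNU-484 minus NCI-N87 (log2). Of the genes that were lower in SNU-484 and higher in NCI-N87, TGM2 differed by -3.28, NES by -3.17, PADI2 by -2.80, SCEL by -2.46, EGF by -2.29, FOSL1 by -2.28, MAMDC2 by -2.23 and ANKRD1 by -1.82. The metallothionein genes differed the other way, MT1X by 2.78, MT1E by 2.15 and MT2A by 1.99. In SNU-484 alone MT1X and MT2A did not pass the test in the joint fit. CCL5 differed by 1.88, with 1.53 ± 0.39 in SNU-484 and -0.34 ± 0.17 in NCI-N87 (SE), where it did not pass the test. CCL5 was under 0.5 CPM in every SNU-484 library. The lines differ in HER2 level and in much else, and whether their vehicle cells were handled alike is open, so the difference cannot be told apart from any other property of the lines.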

How the results depend on the processing

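With 1 library left out, 832 to 2801 genes were higher and 634 to 2676 lower, against 1897 and 1629 with all libraries. The lowest counts came without vehicle replicate 2 and the highest without T-DXd replicate 3. With an offset for transcript length, added after the data were seen, 3123 genes were lower. The other scalings and filters, robust weights, DESeq2 and the joint fit kept both counts within 1.5 times. Same-numbered T-DXd and vehicle libraries correlated at 0.39, -0.17 and 0.37 in their deviations, and differently numbered ones at -0.50 to 0.32. The main fit did not treat them as pairs, and a replicate block gave 2422 higher and 2346 lower genes. The number of genes that differed between lines was 5459 to 6839 over its alternatives. Of 542 named genes tested, 0 changed direction past the threshold under the alternatives run. Leaving out vehicle replicates 1, 2 and 3 ended the call of 99, 101 and 95 of them, T-DXd replicate 2 of 78 and T-DXd replicate 1 of 38, whereas leaving out T-DXd replicate 3 ended 2 calls and added 68. Genes under about 1 CPM, such as CCL5, CD74 and CMPK2, are limited by depth.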
